A study of Mus musculus with 24 samples.

Results

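The matrix metalloproteinases Mmp2, Mmp14 and Mmp15, the ADAMTS proteases Adamts1, Adamts4 and Adamts5, and the inhibitors Timp1, Timp2, Timp3 and Timp4 were followed in mouse gastrocnemius muscle held in a cast. These 10 genes were chosen by name as enzymes that cut the extracellular matrix and the proteins that inhibit them, out of 55487 genes listed for each library, and all 10 were found. The study profiled poly-adenylated RNA of the gastrocnemius from 24 male C57BL/6J mice in 3 groups of 8, with 1 library per mouse. One group had both hindlimbs immobilised in casts for 8 days and received MOTS-c, a small peptide encoded within a mitochondrial ribosomal RNA gene, by intraperitoneal injection 2 times a day at 15 mg/kg/day for 8 days (casted + MOTS-c). A second group was casted and injected with water on the same schedule (casted), and the third was left without a cast and injected with water (uncasted). No group received MOTS-c without a cast. The mice were 10 weeks old at the start per the design text, while the sample labels give 12 weeks.

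Extracellular matrix around muscle fibres is made largely by fibroblasts and is turned over by zinc-dependent proteases. MMP2, or gelatinase A, cuts denatured collagen and the type IV collagen of the basement membrane, and it leaves the cell as an inactive precursor. MMP14, a protease anchored in the plasma membrane, activates that precursor on the cell surface with TIMP2 as the bridge between both, so TIMP2 takes part in activation as well as in inhibition. The ADAMTS enzymes described here cut large proteoglycans such as versican and aggrecan, and TIMP3, which stays bound to the matrix, is their main inhibitor in the TIMP family.

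The promoters of 3 inhibitors are shown because Timp3 and Timp4 had the smallest adjusted p for casting among the 10 genes and Timp1 was the tested gene that moved the other way. Each window runs from 250 bases before to 50 bases after the RefSeq transcript start, on the gene's own strand, with RefSeq coordinates of build GRCm38.p6. Capitals mark a GC box (GGGCGG or its reverse complement CCGCCC, the letters bound by Sp1-type factors) or the AP-1 variant TGAGTAA. Timp1 lies at chrX:20869916-20870215 on the plus strand, Timp3 at chr10:86300162-86300461 on the plus strand, and Timp4 at chr6:115252156-115252455 on the minus strand.
Timp1: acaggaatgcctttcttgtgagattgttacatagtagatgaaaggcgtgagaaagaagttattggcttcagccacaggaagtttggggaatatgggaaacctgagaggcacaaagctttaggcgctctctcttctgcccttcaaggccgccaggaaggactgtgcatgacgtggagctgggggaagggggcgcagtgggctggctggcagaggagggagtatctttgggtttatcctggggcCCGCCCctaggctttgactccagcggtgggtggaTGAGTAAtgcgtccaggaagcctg
Timp3: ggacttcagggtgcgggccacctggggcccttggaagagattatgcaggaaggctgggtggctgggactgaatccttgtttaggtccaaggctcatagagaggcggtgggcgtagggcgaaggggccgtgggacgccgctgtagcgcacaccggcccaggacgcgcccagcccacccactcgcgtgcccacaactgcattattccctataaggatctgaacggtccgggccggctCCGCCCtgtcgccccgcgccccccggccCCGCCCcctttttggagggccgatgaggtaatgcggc
Timp4: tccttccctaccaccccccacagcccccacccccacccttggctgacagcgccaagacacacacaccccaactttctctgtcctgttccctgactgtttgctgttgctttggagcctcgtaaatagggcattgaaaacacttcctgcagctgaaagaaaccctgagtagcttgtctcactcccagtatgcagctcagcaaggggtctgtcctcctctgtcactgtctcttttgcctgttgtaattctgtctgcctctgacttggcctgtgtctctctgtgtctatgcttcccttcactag

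The Timp1 window held TGAGTAA at position +27 and a GC box at -8, counted from the start site. The Timp3 window held GC boxes at -15 and +14, and the Timp4 window held none of the motifs searched. The motifs were searched on both strands as exact letters and did not overlap each other in these windows. Among 32851 promoters of the same length, 2.68% held TGAGTAA, 35.7% held a GC box, 5.20% held the AP-1 consensus TGAGTCA or TGACTCA and 13.6% held TATAAA. Timp3 had 24 CpG dinucleotides, Timp1 had 8 and Timp4 had 2, against a median of 7 over all promoters. RefSeq windows were matched for 7 of the 10 genes, and a GC box was present in those of Mmp14, Mmp15, Adamts1 and Timp2 as well. A match of letters is a description of the window and not a binding site.

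In the GENCODE annotation of GRCm38 all 10 are protein-coding genes. Mmp2 lies on the plus strand of chromosome 8 (92827291 to 92853420), as does Mmp15 (95352268 to 95375080), and Mmp14 on the plus strand of chromosome 14 (54431612 to 54445364). Adamts1 (85793827 to 85803113) and Adamts5 (85856173 to 85901828) are neighbours on the minus strand of chromosome 16, and Adamts4 is on the plus strand of chromosome 1 (171250421 to 171260637). Timp1 is on chromosome X (20870166 to 20874735, plus), Timp2 on chromosome 11 (118301069 to 118355740, minus), Timp3 on chromosome 10 (86300372 to 86349506, plus) and Timp4 on chromosome 6 (115241892 to 115252205, minus).

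Levels are given as scaled TPM, the deposited TPM (transcript abundance as a share of the library, corrected for length) after rescaling each library to the middle of all tested genes. Fold changes are on the log2(scaled TPM + 1) scale, where low genes show less than their full change. On the deposited TPM, the median gene was 0.39 higher (log2) in casted than in uncasted muscle, so every direction below is relative to the middle of the gene distribution unless the deposited scale is named. A gene passed the test where limma's p, adjusted by the Benjamini-Hochberg method over 14690 tested genes, was under 0.05. A gene was tested if it reached a TPM of 0.5 in at least 8 libraries, and 9 of the 10 genes did. Summed levels of 8 muscle fibre markers ranged from 51275 to 92666 scaled TPM in casted + MOTS-c libraries, 46987 to 72050 in casted libraries and 108138 to 122496 in uncasted libraries, so the tissue label was borne out in every library.

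The first comparison asked what 8 days of casting did to these genes. Timp1 rose in casted muscle, while Timp2, Timp3, Timp4, Mmp2, Mmp15 and Adamts5 fell, and Mmp14 and Adamts1 did not pass the test. That makes 1 of 9 tested genes higher, where 28.7% of all tested genes were higher, and 6 of 9 lower, where 27.7% were lower. On the deposited TPM, 2 of these 7 calls held in the same direction, the rise of Timp1 and the fall of Timp4. On that scale Mmp14 and Adamts1 were also higher, beside 62.2% of all tested genes that were higher and 7.43% that were lower. The median log2 change of the 9 genes was -0.44 against 0.01 over all tested genes, and on the deposited TPM it was 0.03 against 0.39. In bulk muscle, fewer cells of a type and less RNA per cell cannot be told apart, and this holds for each level given here.

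**Figure D1:**
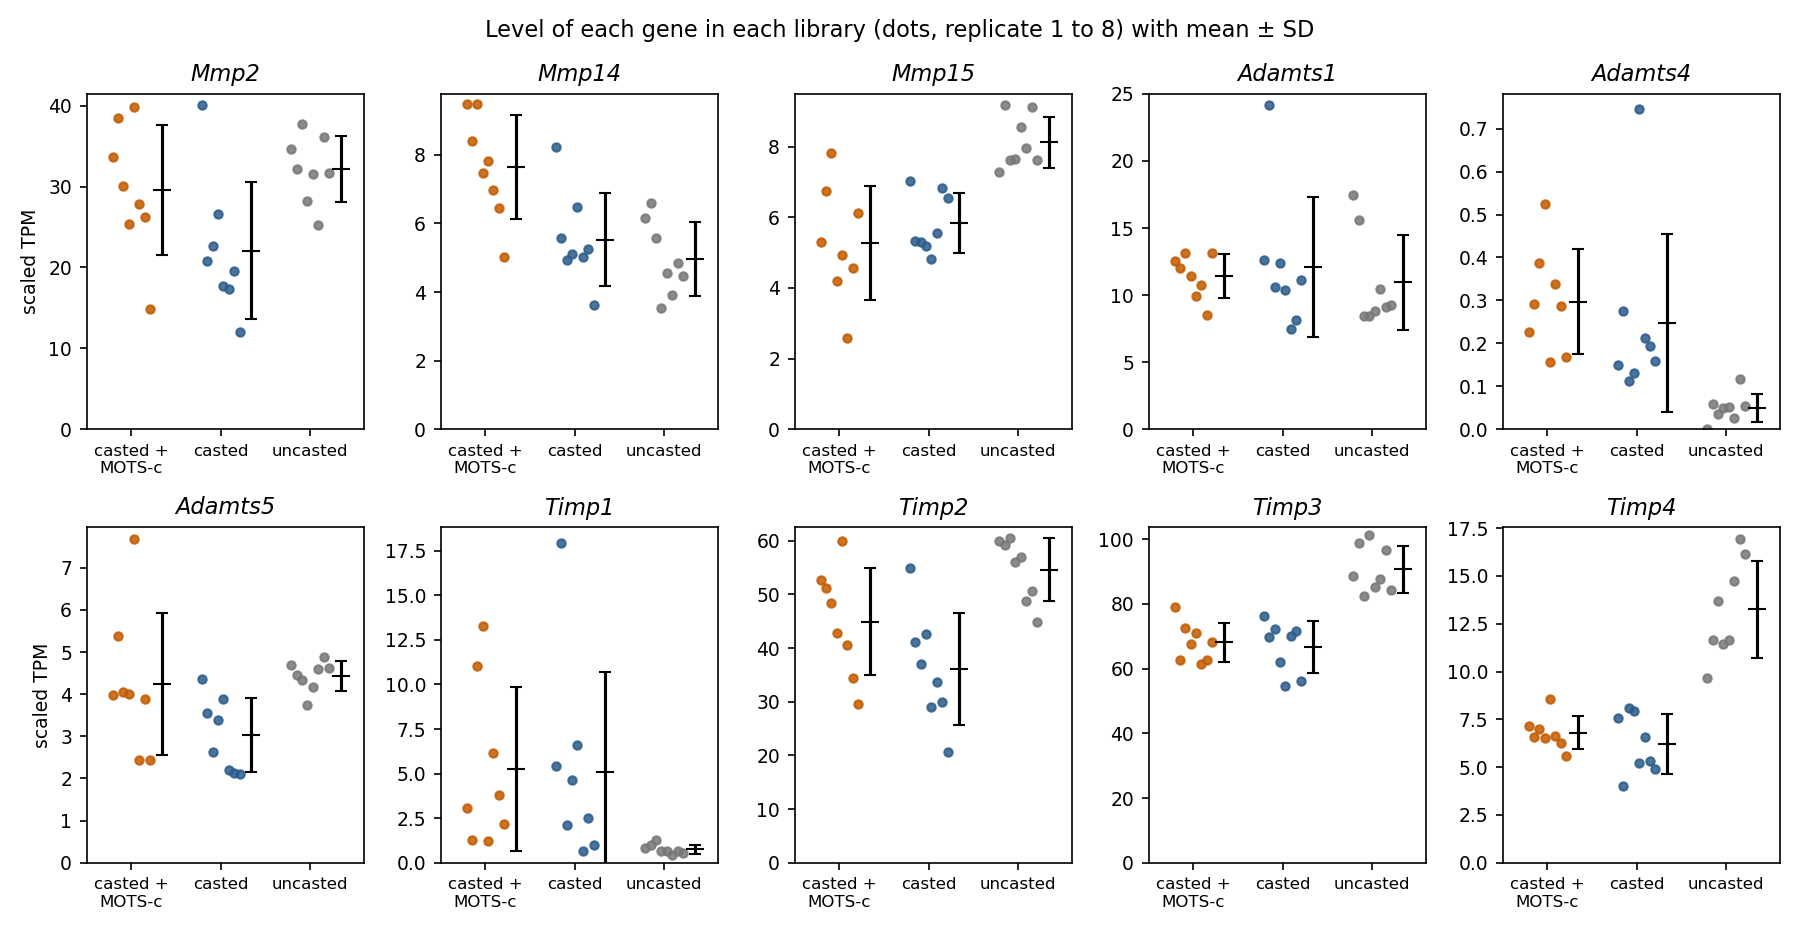
Scaled TPM of the 10 genes (vertical axes, each starting at 0) in each library of the casted + MOTS-c, casted and uncasted groups, with 1 dot per library and the mean ± SD as a bar, drawn no lower than 0. The casted dots of Mmp15, Timp3 and Timp4 all lie below the uncasted dots, as for 10.9% of all tested genes. This holds for none of the 3 on the deposited TPM. Single high casted dots stand out for Adamts1, Adamts4 and Timp1.

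Mmp2 was the most abundant of the 3 metalloproteinases. It ranged from 14.9 through a median of 29.0 to 39.8 scaled TPM in casted + MOTS-c muscle, from 12.1 through 20.2 to 40.1 in casted muscle and from 25.2 through 31.9 to 37.7 in uncasted muscle. The ranges overlapped, with 6 of 8 casted libraries below the lowest uncasted one and 1 above the highest. The mean was 22.1 ± 8.43 in casted and 32.2 ± 4.11 in uncasted muscle (SD, n = 8 each), which gave a log2 fold change of -0.59 ± 0.18 (SE; limma adjusted p = 0.00778). With deposited TPM the change was -0.09 (limma adjusted p = 0.675).

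Mmp14, the membrane-bound activator of Mmp2, ranged from 5.02 through 7.64 to 9.49 scaled TPM in casted + MOTS-c muscle, from 3.61 through 5.19 to 8.23 in casted muscle and from 3.53 through 4.69 to 6.59 in uncasted muscle. The casted and uncasted ranges overlapped, with 1 casted library above the highest uncasted one, at means of 5.53 ± 1.35 and 4.95 ± 1.07. The log2 change with casting was 0.13 ± 0.13 (limma adjusted p = 0.416), and on the deposited scale it was 0.55 (limma adjusted p = 0.0017).

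Mmp15 encodes another membrane-anchored metalloproteinase of the same subgroup as MMP14. Its level ran from 2.58 through 5.12 to 7.82 scaled TPM in casted + MOTS-c muscle, from 4.83 through 5.45 to 7.03 in casted muscle and from 7.27 through 7.81 to 9.17 in uncasted muscle. On this scale all 8 casted libraries were below all 8 uncasted ones, a separation that 10.9% of all tested genes showed in that direction. Casting changed Mmp15 by -0.42 ± 0.13 on the log2 scale (limma adjusted p = 0.00571). Deposited TPM gave a change of 0.03 (limma adjusted p = 0.877).

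Of the proteoglycan-cutting enzymes, Adamts1 was the most abundant. It ranged from 8.51 through 11.7 to 13.1 scaled TPM in casted + MOTS-c muscle, from 7.47 through 10.9 to 24.2 in casted muscle and from 8.43 through 9.21 to 17.5 in uncasted muscle. Casted replicate 2 gave the 24.2, with the next casted library at 12.7. The log2 change with casting was 0.10 ± 0.17 (limma adjusted p = 0.635), and it was -0.04 without that library. With deposited TPM the change was 0.57 (limma adjusted p = 0.00739).

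Adamts5, an aggrecanase, ran from 2.43 through 3.99 to 7.69 scaled TPM in casted + MOTS-c muscle, from 2.11 through 3.0 to 4.36 in casted muscle and from 3.74 through 4.53 to 4.88 in uncasted muscle. The uncasted libraries lay close together, with a coefficient of variation of 8.01%, against 29.0% in casted and 39.9% in casted + MOTS-c muscle. With casting it fell by 0.46 ± 0.15 on the log2 scale (limma adjusted p = 0.0118), and 6 of 8 casted libraries were below the lowest uncasted one. That change was -0.05 on the deposited scale (limma adjusted p = 0.752).

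Adamts4, also an aggrecanase, was the lowest of the 10 genes and did not reach the minimum for testing. It averaged 0.297 ± 0.121 scaled TPM in casted + MOTS-c muscle, 0.247 ± 0.208 in casted muscle and 0.0494 ± 0.0335 in uncasted muscle. Libraries ranged from 0.157 to 0.525 in casted + MOTS-c, from 0.111 to 0.745 in casted and from 0 to 0.117 in uncasted muscle. In a fit without the minimum, over 30779 genes, casted muscle differed from uncasted muscle by 0.24 ± 0.07 on the log2 scale (limma adjusted p = 0.0134). These values are uncertain, because the sources used here do not say if strand was recorded, and reads from overlapping genes could then not be told apart.

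The inhibitor Timp1, a secreted protein known as responsive to inflammatory cytokines, was low in uncasted muscle and spread widely in both casted groups. Its levels by replicate were 3.09, 1.25, 11.0, 13.3, 1.21, 6.16, 3.81 and 2.18 scaled TPM in casted + MOTS-c muscle. They were 5.43, 17.9, 2.13, 4.63, 6.62, 0.638, 2.53 and 1.01 in casted muscle, and 0.826, 0.99, 1.25, 0.643, 0.684, 0.431, 0.655 and 0.52 in uncasted muscle. The ranges overlapped, with 6 of 8 casted libraries above the highest uncasted one. The mean was 5.11 ± 5.59 in casted and 0.75 ± 0.266 in uncasted muscle, a ratio of means of 6.82 and a log2 fold change of 1.40 ± 0.41 (limma adjusted p = 0.00553). It was the one tested gene of the 10 that rose on both scales, with a log2 fold change of 1.66 on the deposited one (limma adjusted p = 0.00112). Without casted replicate 2, which gave the 17.9, the casted mean was 3.28, the ratio of means 4.38 and the log2 fold change 1.11 (limma adjusted p = 0.0133). With casted replicates 5 to 8 alone as the casted group, the change was 0.82 (limma adjusted p = 0.116).

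Timp2, the inhibitor that also bridges MMP14 and the MMP2 precursor, ran from 29.6 through 45.6 to 60.0 scaled TPM in casted + MOTS-c muscle, from 20.7 through 35.4 to 54.9 in casted muscle and from 44.9 through 56.5 to 60.6 in uncasted muscle. Of the casted libraries, 7 of 8 were below the lowest uncasted one. The log2 change was -0.63 ± 0.15 (limma adjusted p = 0.000922), and -0.12 on the deposited scale (limma adjusted p = 0.475). The annotation places Cep295nl, which reached at most 0.59 TPM in any library, inside Timp2 on the same strand.

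Timp3, the matrix-bound inhibitor, was the most abundant of the 10 genes and the least variable. It ranged from 61.5 through 68.0 to 78.9 scaled TPM in casted + MOTS-c muscle, from 54.7 through 69.9 to 76.3 in casted muscle and from 82.5 through 88.2 to 101.4 in uncasted muscle. On this scale all libraries of both casted groups were below all uncasted libraries. Of all tested genes, 10.9% showed that separation for casted and 8.15% for casted + MOTS-c libraries. The means were 66.6 ± 7.97 in casted and 90.6 ± 7.25 in uncasted muscle, a log2 fold change of -0.44 ± 0.07 (limma adjusted p = 1.03e-05). With deposited TPM the change was 0.07 (limma adjusted p = 0.532), beside the shift of 0.39 in the median gene.

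Timp4, an inhibitor known for its expression in heart and skeletal muscle, had the largest fall of the 9 tested genes. Its levels by replicate were 7.18, 6.57, 6.97, 6.54, 8.58, 6.61, 6.29 and 5.58 scaled TPM in casted + MOTS-c muscle. They were 7.59, 4.02, 8.11, 7.93, 5.20, 6.58, 5.34 and 4.93 in casted muscle, against 9.67, 11.7, 13.7, 11.5, 11.7, 14.7, 16.9 and 16.2 in uncasted muscle. The casted and uncasted libraries did not overlap on this scale, a separation that 10.9% of all tested genes showed in that direction. As deposited the Timp4 ranges overlapped, at 4.51 to 9.11 TPM in casted and 7.96 to 14.5 TPM in uncasted muscle. On that scale 6 of 8 casted libraries were below the lowest uncasted one. The mean was 6.21 ± 1.55 in casted and 13.2 ± 2.54 in uncasted muscle, a log2 fold change of -0.99 ± 0.12 (limma adjusted p = 2.32e-07). The fall was also present on the deposited scale, at -0.53 (limma adjusted p = 0.000229).

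Timp1, Timp3 and Timp4 each lie within a synapsin gene on the opposite strand, Syn1, Syn3 and Syn2. These reached at most 0.06, 0.37 and 1.41 TPM in any library, against group means of Timp1, Timp3 and Timp4 that were higher in every group.

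As a sum, the TIMP transcripts were lower in both casted groups on the scaled TPM and not on the deposited TPM. The 4 TIMP genes added up to 125 ± 15.0 scaled TPM in casted + MOTS-c muscle, 114 ± 19.5 in casted muscle and 159 ± 8.70 in uncasted muscle. The highest casted library reached 144 and the lowest uncasted library 146. As deposited, the sums were 136 ± 19.7, 131 ± 22.8 and 128 ± 12.9 TPM in the same groups, whose ranges overlapped. Timp3 made up 54.8% ± 4.73 of the sum in casted + MOTS-c, 59.0% ± 6.06 in casted and 56.9% ± 2.41 in uncasted muscle. The share of Timp1 was 4.15% ± 3.42, 4.25% ± 4.23 and 0.469% ± 0.16 in the same groups, and that of Timp4 was 5.44% ± 0.42, 5.51% ± 1.21 and 8.37% ± 1.84. These shares within the TIMP family do not depend on how libraries are scaled.

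**Figure D2:**
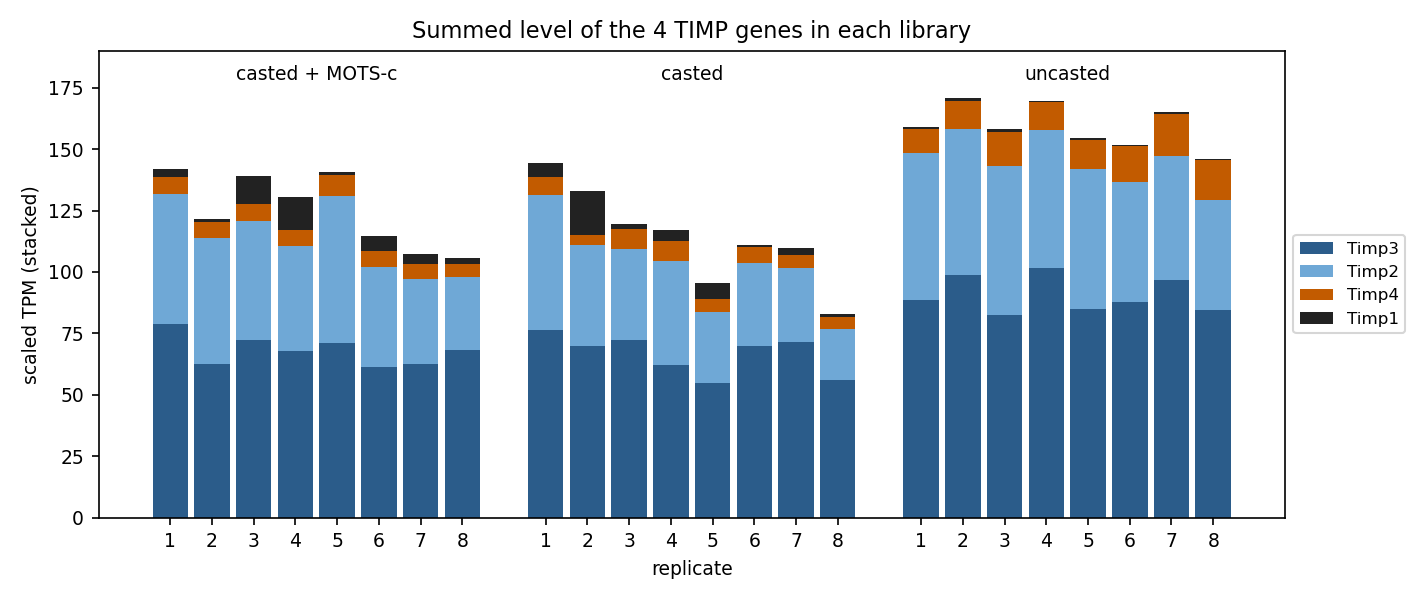
Scaled TPM of Timp3, Timp2, Timp4 and Timp1 stacked for each library (vertical axis, from 0), by replicate in the casted + MOTS-c, casted and uncasted groups. The uncasted bars reach 146 to 171 and the casted bars 82.8 to 144, a difference seen on the scaled TPM only, and Timp1 is a visible segment in libraries of both casted groups.

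Ratios of 2 genes within a library are also independent of the scaling. Mmp14 stood at 0.172 ± 0.0195 of Timp2 in casted + MOTS-c muscle, 0.158 ± 0.033 in casted muscle and 0.0905 ± 0.0154 in uncasted muscle. The lowest casted ratio of 0.120 and the lowest casted + MOTS-c ratio of 0.130 were above the highest uncasted ratio of 0.111. Mmp14 against Mmp2 was 0.267 ± 0.0482, 0.264 ± 0.0578 and 0.154 ± 0.026 in the same groups, with casted and uncasted libraries overlapping slightly, at a casted minimum of 0.192 and an uncasted maximum of 0.205. Mmp2 against Timp2 was 0.653 ± 0.0847, 0.604 ± 0.0731 and 0.592 ± 0.0815. Its groups overlapped throughout. Adamts5 against Timp3 was 0.0622 ± 0.0241, 0.0461 ± 0.0146 and 0.0493 ± 0.00581 in the same groups, which overlapped. These ratios were described after their values were seen and carry no test. How many other pairs of genes separate the groups in this way was not examined.

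The second comparison asked whether MOTS-c changed these genes in casted muscle. None of the 9 tested genes passed limma's test, where 0.0204% of all tested genes passed (3 genes), and 1986 genes had an unadjusted p under 0.05. Mmp2, Mmp14, Adamts5 and Timp2 were among those, all with higher means in casted + MOTS-c muscle. Mmp2 averaged 29.6 ± 8.0 scaled TPM in casted + MOTS-c and 22.1 ± 8.43 in casted muscle, a log2 difference of 0.43 ± 0.18 with a 95% interval of 0.06 to 0.80 (limma adjusted p = 0.321). Mmp14 averaged 7.64 ± 1.52 and 5.53 ± 1.35 in these groups, a difference of 0.41 ± 0.13 (limma adjusted p = 0.209), and 7 of 8 casted + MOTS-c libraries were above the casted mean. The differences of Adamts5 and Timp2 were 0.35 ± 0.15 and 0.33 ± 0.15 (limma adjusted p = 0.33 and 0.349). With 1 library left out, the lowest differences were 0.32 for Mmp2, 0.34 for Mmp14, 0.23 for Adamts5 and 0.22 for Timp2. The SE, intervals and p of this comparison pooled the spread of all 3 groups. Uncasted libraries, which it does not compare, had the smallest SD for each of these genes. With only casted + MOTS-c and casted libraries in the fit, 1555 genes had an unadjusted p under 0.05. The limma adjusted p were then 0.474 for Mmp2, 0.361 for Mmp14, 0.492 for Adamts5 and 0.498 for Timp2.

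The other inhibitors differed less between casted + MOTS-c and casted muscle. Timp3 differed by 0.04 with a 95% interval of -0.11 to 0.18, Timp4 by 0.13 with an interval of -0.12 to 0.38, and Timp1 by 0.13 with a wide interval of -0.72 to 0.98. Adamts1 differed by -0.01 and Mmp15 by -0.16 (limma adjusted p = 0.985 and 0.595). These intervals do not show that MOTS-c left the genes unchanged.

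Replicates 1 to 4 and replicates 5 to 8 differed, and the MOTS-c comparison depended on which casted libraries were used. Mmp2 averaged 27.6 ± 8.72 scaled TPM in casted replicates 1 to 4 and 16.6 ± 3.22 in casted replicates 5 to 8, and Timp2 averaged 43.9 ± 7.69 and 28.4 ± 5.49. Timp2 was also higher in replicates 1 to 4 of the other groups, at 48.8 and 41.2 in casted + MOTS-c and 59.0 and 50.3 in uncasted muscle, as was Mmp2, at 31.9 and 27.2 in casted + MOTS-c and 33.2 and 31.1 in uncasted muscle. With all 8 casted + MOTS-c libraries set against casted replicates 5 to 8 alone, Mmp2 at 0.76, Mmp14 at 0.50 and Timp2 at 0.64 passed as higher in casted + MOTS-c muscle (limma adjusted p = 0.0141, 0.0434 and 0.0134), where 4.62% of all tested genes passed as higher. Against casted replicates 1 to 4 alone, none of the 9 passed, where 0.0136% of all tested genes did. With casted replicates 1 to 4 as the casted group, the casting changes of Mmp2, Adamts5 and Timp2 did not pass either, at -0.25, -0.29 and -0.32 (limma adjusted p = 0.318, 0.195 and 0.0886), in a comparison where 40.5% of all tested genes passed. With replicates 5 to 8 of every group, in a fit chosen after seeing the data, none of the 9 passed for MOTS-c, with Mmp2 at 0.62, Mmp14 at 0.32 and Timp2 at 0.49 (limma adjusted p = 0.187, 0.275 and 0.199), where 0.81% of all tested genes passed. With replicates 1 to 4 of every group none of the 9 passed either, nor did any other tested gene (999 had an unadjusted p under 0.05). For casting, Timp2 passed in both of these fits, at -0.43 with replicates 1 to 4 and -0.82 with replicates 5 to 8 (limma adjusted p = 0.00621 and 0.00374), where 37.4% and 47.1% of all tested genes passed. Mmp2 and Adamts5 passed with replicates 5 to 8 only, while Timp1 at 0.97 and Mmp15 at -0.43 did not pass there (limma adjusted p = 0.0783 and 0.0611). Fibroblast markers summed to a higher mean in replicates 1 to 4 than in replicates 5 to 8 of every group, at 1207 and 1011 scaled TPM in casted + MOTS-c, 1064 and 812 in casted and 1327 and 1066 in uncasted muscle. Tenocyte markers did so too, at 133 and 80.8, 129 and 55.8, and 196 and 88.6 in the same groups. Sums of endothelial, macrophage, satellite cell and adipocyte markers were also higher in replicates 1 to 4 of every group. Those of smooth muscle and pericyte, neutrophil, Schwann cell and muscle fibre markers were not. The labels name no batch, and the part of cell composition in these differences was not tested.

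The third comparison set casted + MOTS-c muscle against uncasted muscle. Of the 9 tested genes 2 were higher, Mmp14 and Timp1, where 26% of all tested genes were higher, and 3 were lower, Mmp15, Timp3 and Timp4, where 24.7% were lower. Mmp14 averaged 7.64 ± 1.52 scaled TPM in casted + MOTS-c and 4.95 ± 1.07 in uncasted muscle, a log2 fold change of 0.54 ± 0.13 (limma adjusted p = 0.00135), with 6 of 8 libraries above the highest uncasted one. With deposited TPM it passed as well, at 0.90. Timp1 was higher by 1.53 ± 0.41 (limma adjusted p = 0.00333), with 7 of 8 libraries above the uncasted range.

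On the scaled TPM, Timp4 and Timp3 were lower in all 8 casted + MOTS-c libraries than in any uncasted one, a separation that 8.15% of all tested genes showed in that direction. Their log2 changes were -0.86 ± 0.12 and -0.41 ± 0.07 (limma adjusted p = 2.97e-06 and 4.36e-05), and Mmp15 changed by -0.58 ± 0.13 (limma adjusted p = 0.000437). On the deposited scale Timp4 stayed lower at -0.46 (limma adjusted p = 0.00108), while Mmp15 at -0.20 and Timp3 at 0.03 did not pass. Mmp2 at -0.16, Adamts5 at -0.11, Timp2 at -0.30 and Adamts1 at 0.09 did not pass (limma adjusted p = 0.489, 0.561, 0.0958 and 0.684). Both comparisons with uncasted muscle share the uncasted libraries, so their values stand side by side and are not independent.

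**Figure D3:**
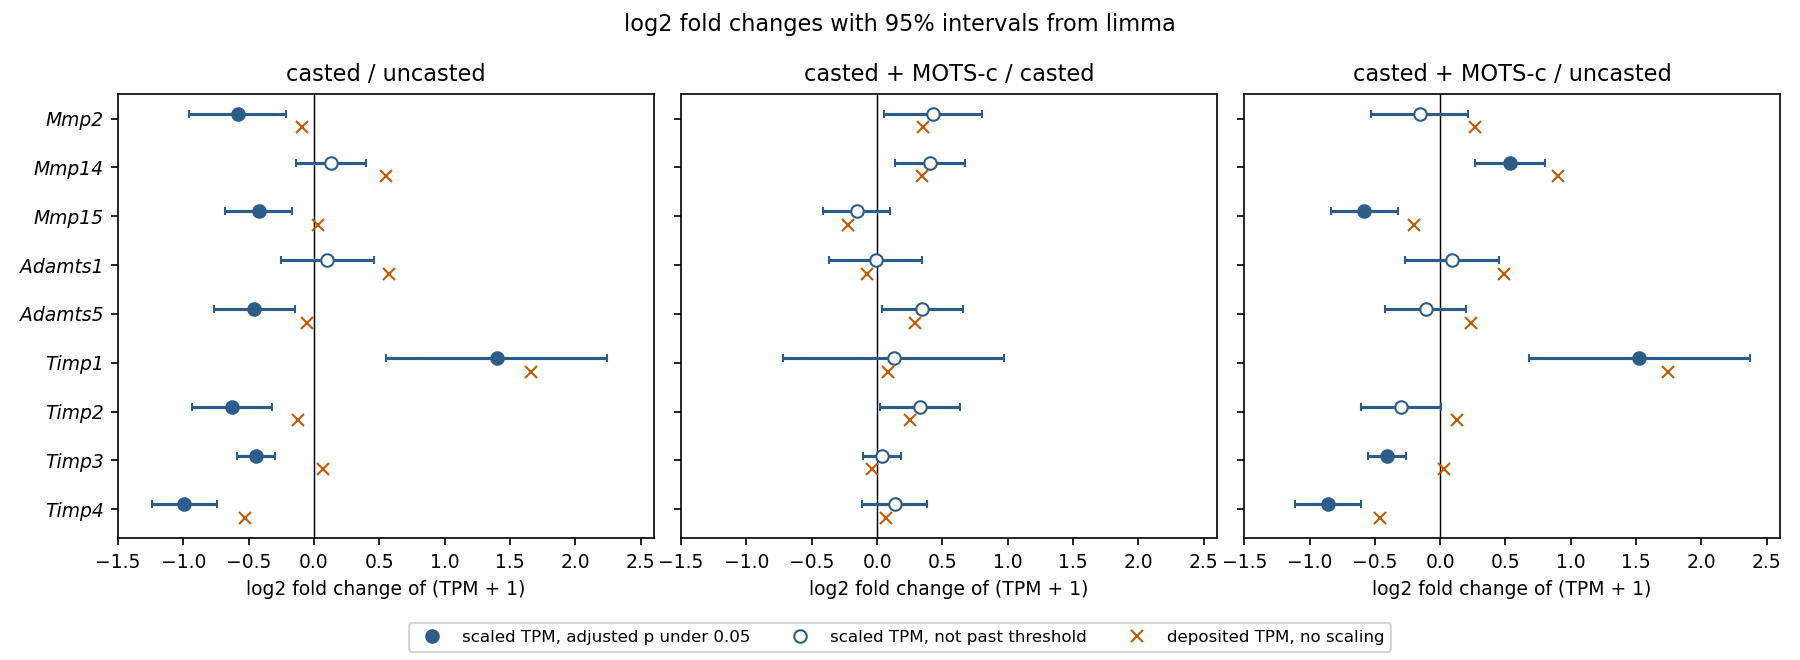
Log2 fold changes of the 9 tested genes (horizontal axes) for casted over uncasted, casted + MOTS-c over casted and casted + MOTS-c over uncasted muscle, as circles with 95% intervals on the scaled TPM and crosses on the deposited TPM. Filled circles passed the test, and the crosses of the comparisons with uncasted muscle sit to the right of the circles for every gene, which places Timp3 at 0.07 in place of -0.44 for casting.

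The levels of Mmp2, Mmp14, Adamts5 and Timp2 followed each other from library to library in both casted groups, while their relations in uncasted muscle were mixed. Within groups of 8, r for the 6 pairs of these genes ran from 0.52 to 0.92 in casted + MOTS-c libraries, from 0.68 to 0.94 in casted libraries and from -0.36, for Adamts5 with Timp2, to 0.68 in uncasted libraries. Over the 24 libraries after subtraction of group means, 6 of the 36 pairs of tested genes had an adjusted permutation p under 0.05 for Pearson's r, and all 6 were positive and among these 4 genes. Of these, Adamts5 with Timp2 did not pass for Spearman's rho (adjusted permutation p = 0.0697). Mmp2 and Timp2 had r = 0.89 and Spearman's rho = 0.84 (permutation p = 1e-05 and 2e-05, the first being the smallest that 100000 permutations within groups can give, adjusted 0.00036 and 0.00072). Without the 2 libraries farthest from the median of the second gene, r was 0.82. By group, r was 0.92 in casted + MOTS-c, 0.94 in casted and 0.40 in uncasted libraries, and the difference between groups was not tested. The permutations treated the libraries of a group as exchangeable, which the replicate numbers put in doubt. By the split of replicates described above, Mmp2, Mmp14 and Timp2 had higher means in the lower replicate numbers of every group. Adamts5 did so in both casted groups and not in uncasted muscle. The permutation p cannot tell a relation between genes from a difference shared by replicate numbers. Pairs of other genes were not tested in this way.

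Mmp2 with Mmp14 gave r = 0.74 and rho = 0.67 (permutation p = 0.00013 and 0.00092, adjusted 0.00234 and 0.011), and r = 0.58 without 2 libraries. Mmp14 with Timp2 gave r = 0.71 and rho = 0.68 (permutation p = 0.00035 and 0.00066, adjusted 0.0042 and 0.011), and r = 0.55 without 2 libraries. Timp1 and Timp4 joined none of these pairs. Timp2 with Timp4 gave r = 0.89 in casted + MOTS-c libraries, 0.49 in casted libraries and -0.77 in uncasted libraries, and over all libraries it had r = 0.33 and rho = 0.30 (permutation p = 0.16 and 0.176, adjusted 0.359 and 0.395). Libraries of a group differed in their scaling factor (1.0 to 1.24 in casted and 0.891 to 1.21 in casted + MOTS-c libraries). They also differed in their fibroblast markers (sums of 584 to 1371 scaled TPM in casted libraries). Casted + MOTS-c replicate 5 had the factor of 0.891. It also had the highest Mmp2, Adamts5, Timp2 and Timp4 of its group, at 39.8, 7.69, 60.0 and 8.58 scaled TPM. On the first principal component of all tested genes, the axis of largest variation, this library lay at -17.8. The others of its group lay at 13.7 to 29.6, casted libraries at 6.39 to 36.5 and uncasted libraries at -40.9 to -39.7. That library thus lay between the uncasted and the other casted libraries over all tested genes. The part of these differences and of that library in the relations was not tested.

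**Figure D4:**
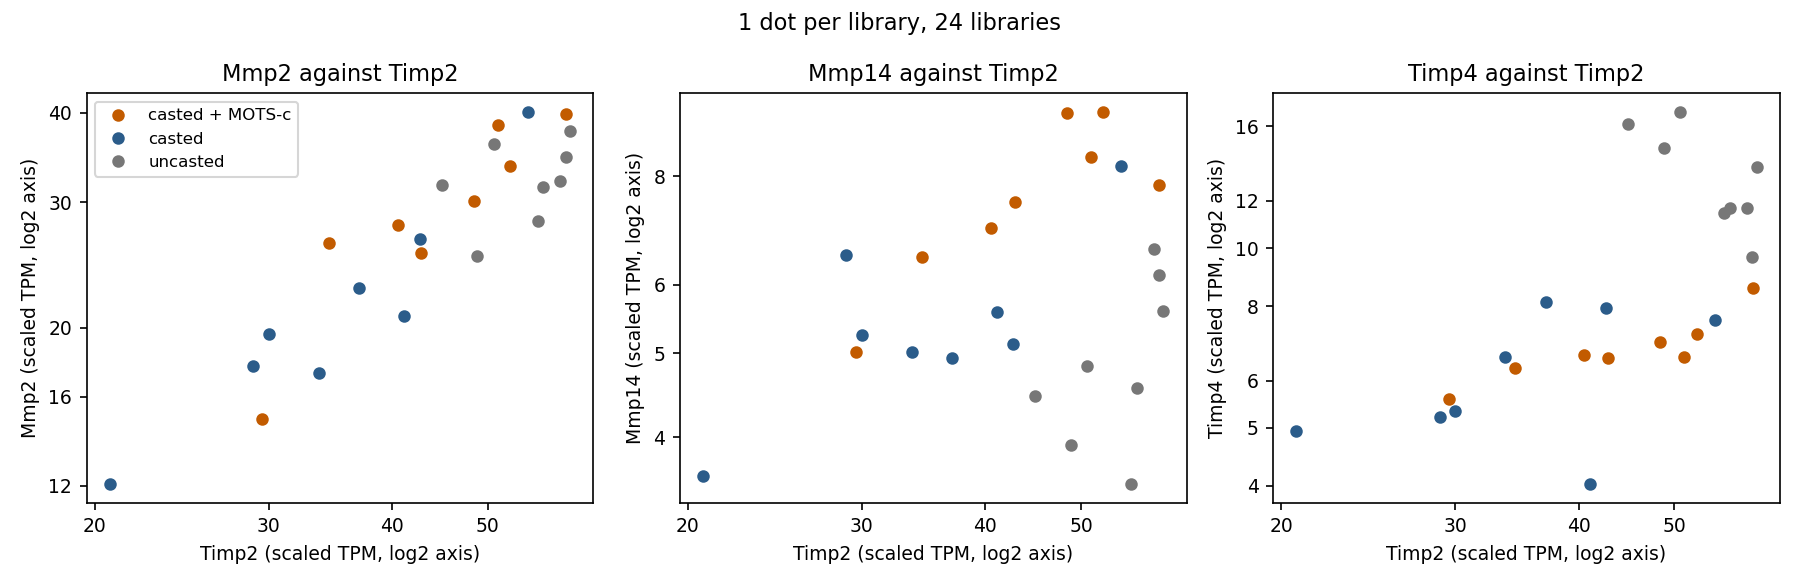
Scaled TPM of Mmp2, Mmp14 and Timp4 (vertical, log2 axes) against Timp2 (horizontal, log2 axis), with 1 dot per library. Mmp2 follows Timp2 in both casted groups (r = 0.92 in casted + MOTS-c and 0.94 in casted libraries, 0.40 in uncasted libraries), and Mmp14 sits lower for a given Timp2 in uncasted libraries. Uncasted Timp4 dots lie above those of both casted groups. Of all tested genes, 10.9% showed that separation from casted and 8.15% from casted + MOTS-c libraries.

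The genes whose library-to-library pattern was most like each of these, among tested genes with a mean of at least 5 scaled TPM, differed between members. For Timp2 they were Ecm2, Itih5 and Serpinf1 (r = 0.94, 0.94 and 0.93 over 24 libraries after subtraction of group means). For Mmp2 they were Itih5, Ctsk and Nbl1 (r = 0.91, 0.90 and 0.89), and for Mmp14 they were Kctd12, Utrn and the fibroblast marker Pdgfra (r = 0.89, 0.83 and 0.82). Timp1 was closest to Msn, Postn and Lgmn (r = 0.87, 0.86 and 0.84). Timp4 was closest to Ramp2, Kank3 and Cdkn1c (r = 0.76, 0.75 and 0.74), and Timp3 to Ephx1, Scd2 and Itpkb (r = 0.74, 0.71 and 0.70). Adamts5 was closest to Mettl21c, Cd34 and Gpd1 (r = 0.90, 0.86 and 0.83), Adamts1 to Azin1, Spry2 and 1110002E22Rik (r = 0.81, 0.81 and 0.79), and Mmp15 to Mpv17, Xrcc5 and Mrpl39 (r = 0.85, 0.83 and 0.79). These partners were picked as the highest of all tested genes, so their r is a description. Some did not hold across libraries. Mmp15 with Mrpl39 had r = 0.39 without the 2 libraries farthest from the Mmp15 median, while Timp2 with Itih5 kept 0.93 in the like check. In uncasted libraries alone, r was -0.69 for Adamts5 with Gpd1 and 0.03 for Mmp15 with Xrcc5.

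The remaining MMP family was scarce in this muscle. Of 20 other MMP genes, Mmp1a, Mmp1b and Mmp7 were listed at 0 in every library, 14 in all averaged under 0.5 TPM and 7 were tested. With casting 3 of the 7 rose and 1 fell, where 28.7% of all tested genes were higher and 27.7% lower. The same shares apply to the casting counts of the lists below. The median log2 change of the 7 was 0.13, against 0.01 over all tested genes. Mmp3, or stromelysin 1, averaged 2.25 ± 1.34 scaled TPM in casted + MOTS-c, 1.63 ± 0.977 in casted and 0.239 ± 0.1 in uncasted muscle, and rose by 1.01 ± 0.21 with casting (limma adjusted p = 0.000259). Mmp3 ranged from 0.468 to 3.77 scaled TPM in casted and from 0.0819 to 0.365 in uncasted libraries. Mmp11 rose by 0.46 and Mmp12, the macrophage elastase, by 0.54, while Mmp23 fell by 0.53 (limma adjusted p = 0.00163, 0.000247 and 0.0017). On the deposited scale 5 of the 7 were higher and none was lower, where 62.2% of all tested genes were higher and 7.43% lower. These shares apply to the deposited casting counts of the lists below. Mmp23 was at -0.25 on that scale (limma adjusted p = 0.113).

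Of 16 other ADAMTS genes 8 were tested, and with casting 1 rose and 4 fell, with a median of -0.21, while deposited TPM gave 1 higher and 1 lower. Adamts10, known for its tie to fibrillin microfibrils, averaged 4.29 ± 0.706 scaled TPM in casted + MOTS-c, 3.13 ± 0.683 in casted and 6.66 ± 1.48 in uncasted muscle, a log2 fold change of -0.88 ± 0.11 with casting (limma adjusted p = 5.53e-07). Adamts2, a procollagen N-proteinase, fell by 0.47 and Adamts12 by 0.36 (limma adjusted p = 0.0014 and 0.00568), neither passing on the deposited scale. Adamts9 was higher by 0.35 (limma adjusted p = 0.0349), a call lost when any of casted replicates 5, 6 or 7 or uncasted replicates 1 or 2 was left out. All 5 tested ADAMTS-like genes, which lack the protease domain, had lower means in casted muscle and 4 passed, at -0.67 for Adamtsl5, -0.65 for Adamtsl2, -0.47 for Adamtsl3 and -0.41 for Adamtsl1 (limma adjusted p = 0.00153, 6.68e-05, 0.0179 and 0.0125). Only Adamtsl2 among them passed on the deposited scale, at -0.40 (limma adjusted p = 0.00511).

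Genes that activate, inhibit or clear these enzymes moved in both directions with casting, 3 higher and 6 lower of 15 tested, with a median of -0.20 (0.30 on the deposited TPM). Serpine2, the inhibitor protease nexin 1, averaged 39.1 ± 7.84 scaled TPM in casted + MOTS-c, 31.4 ± 8.36 in casted and 81.0 ± 4.35 in uncasted muscle, a log2 fold change of -1.38 ± 0.13 with casting (limma adjusted p = 2.91e-09). Pcsk6, a proprotein convertase, changed by -1.16, and Bsg, the MMP inducer basigin, by -0.65 (limma adjusted p = 1.64e-06 and 2.51e-07). Thbs1, a thrombospondin that binds proteases, rose by 1.11, Furin, which removes the propeptide of MMP14 and of ADAMTS proteases, by 0.43, and the urokinase receptor Plaur by 0.41 (limma adjusted p = 0.0006, 0.00101 and 0.0172). Deposited TPM gave 7 higher and 3 lower, and the calls of these 6 genes kept their direction.

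Substrates of the enzymes were lower with casting in 13 of 17 tested cases and higher in none, where 27.7% of all tested genes were lower. Their median was -0.76. Col1a1, a chain of type I collagen, averaged 42.0 ± 18.1 scaled TPM in casted + MOTS-c, 22.7 ± 21.1 in casted and 89.3 ± 38.7 in uncasted muscle, a log2 fold change of -2.22 ± 0.40 with casting (limma adjusted p = 4.19e-05). Col1a2 changed by -1.80 and Col6a1 by -1.33 (limma adjusted p = 7.76e-05 and 7.49e-06). Deposited TPM gave 7 substrates lower and 2 higher. Against uncasted muscle, casted + MOTS-c muscle had 8 substrates lower and 1 higher of 17, where 24.7% of all tested genes were lower and 26% higher. No substrate passed the test of MOTS-c against casting alone.

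Cytokines, receptors and transcription factors known to act on MMP and TIMP genes were higher with casting in 15 of 18 tested cases and lower in none. Of all tested genes 28.7% were higher. The median of the list was 0.64. Of its 23 genes, Il6, Tnf, Osm, Lif and Fosl1 were too low to be tested. Among the cytokine ligands tested, Il1b at 0.47 and Tgfb3 at 0.23 passed, while Tgfb1 at -0.26 and Tgfb2 at 0.01 did not. Il1b was low, with a mean of 0.486 scaled TPM in casted and 0.0605 in uncasted muscle. Junb, a subunit of the AP-1 factor, averaged 25.1 ± 11.6 scaled TPM in casted + MOTS-c, 38.2 ± 16.4 in casted and 4.62 ± 2.0 in uncasted muscle, a log2 fold change of 2.76 ± 0.27 with casting (limma adjusted p = 9.79e-09). The transcription factor Runx1 rose by 2.64 and Socs3, a feedback target of STAT3, by 1.81 (limma adjusted p = 1.1e-09 and 1.28e-05). With deposited TPM, 17 of the 18 were higher, where 62.2% of all tested genes were. None of the genes in these family and pathway lists passed the test of MOTS-c against casting alone.

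**Figure D5:**
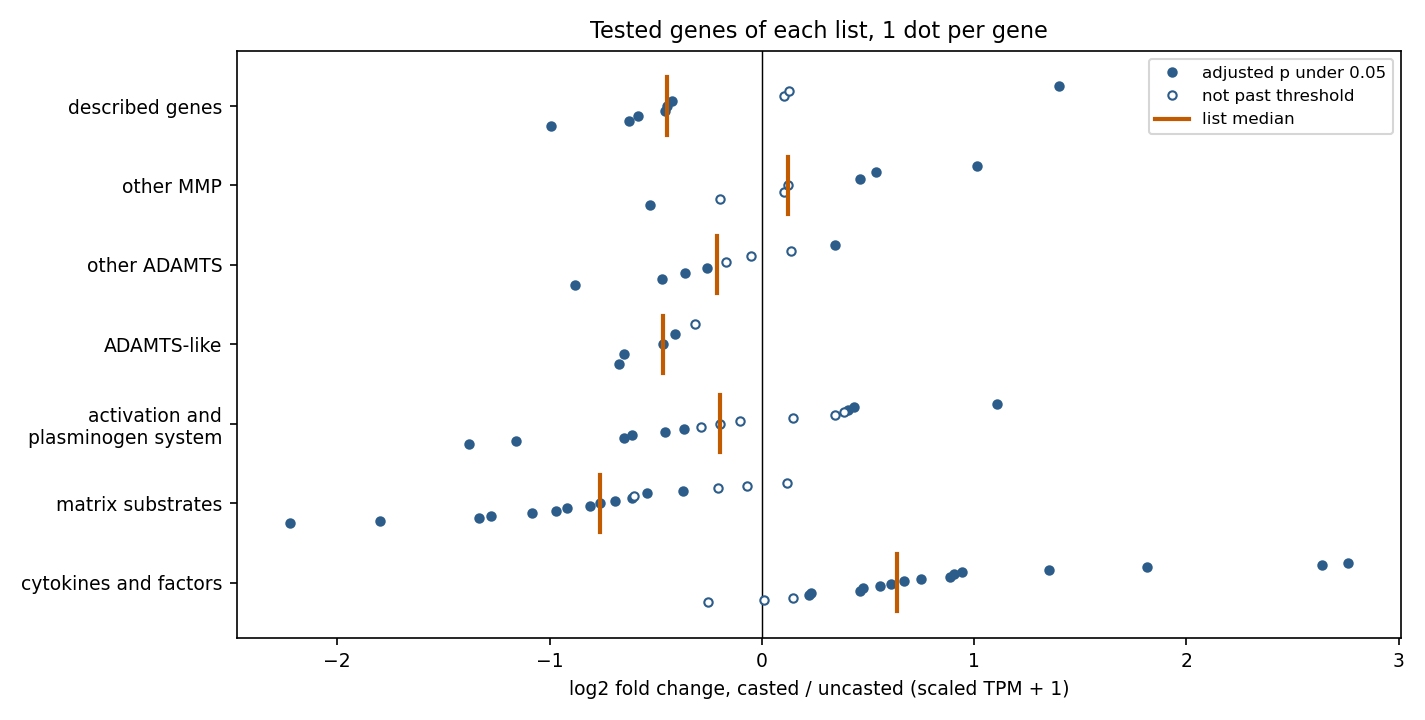
Log2 fold changes of casted over uncasted muscle (horizontal axis, scaled TPM + 1) for the tested genes of each list, with 1 dot per gene, filled where the test was passed, and the list median as a bar. The 9 described genes have a median of -0.44 (0.03 on the deposited TPM), the matrix substrates -0.76 and the cytokines and factors 0.64.

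Markers of several cell types also differed with casting. Over all tested genes, 28.7% were higher and 27.7% lower, and on the deposited TPM 62.2% and 7.43%. Which cells made the transcripts of the 10 genes cannot be read from bulk muscle. The summed level of 10 fibroblast markers ranged from 691 to 1394 scaled TPM in casted + MOTS-c, 584 to 1371 in casted and 1006 to 1419 in uncasted muscle, and 6 of the 10 were lower with casting (3 higher and 1 lower on the deposited TPM). All 8 endothelial markers were lower with casting, with sums of 95.5 to 126, 78.4 to 116 and 114 to 158 in the same groups, and on the deposited TPM 2 were lower and 1 higher. Smooth muscle and pericyte markers had 6 of 8 lower, with sums of 184 to 275, 144 to 220 and 253 to 317, and 1 was lower on the deposited TPM. Macrophage markers had 6 of 8 higher (8 on the deposited TPM), with sums of 128 to 309, 102 to 242 and 81.9 to 106. Neutrophil markers had all 4 tested genes higher, and sums of all 6 markers were 4.11 to 23.4, 4.87 to 19.3 and 0.204 to 1.61. Cxcr2 and Ly6g were too low to be tested. Ly6g, the defining neutrophil gene, was above 0 in only 3 of 24 libraries and in no casted + MOTS-c library. Muscle fibre markers had 7 of 8 lower and 1 higher (4 lower and 1 higher on the deposited TPM). Tenocyte markers had 3 of 6 lower (1 lower and 1 higher) and Schwann cell markers 3 of 5 lower (2 lower). None of 3 satellite cell and 4 adipocyte markers tested passed (1 and 3 higher on the deposited TPM). No marker in these lists was at 0 in every library, and the part of these cells in the changes of Timp1, Timp2, Timp3, Timp4, Mmp2, Mmp15 and Adamts5 was not tested.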

How the data were processed

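Per the labels' protocols, frozen muscle was extracted in TRIzol and a Zymo column, and libraries captured poly-adenylated RNA. The authors deposited 1 table of TPM per library for 55487 Ensembl genes, and the submitters' processing notes name FastQC, STAR, RSEM, DESeq2 and genome build GRCm38.p6. No version, annotation release or strand setting is given in the sources used here. TPM have a fixed total, so depth is unknown and no counting interval can be given.

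Symbols came from GENCODE for GRCm38 (55141 IDs matched). TPM were scaled by an unweighted trimmed mean of log ratios (30% of ratios and 5% of levels trimmed) and tested as log2(scaled TPM + 1) with limma 3.58.1 in R 4.3.3, with a mean-variance trend, all 24 libraries in 1 fit, two-sided, for genes with TPM of at least 0.5 in 8 libraries or more. The labels give 1 library per mouse. The fit was checked on simulated data, drawn as independent normal values with 1 SD per gene for all groups. That check could not show how the fit handles groups of unequal spread or variation shared by libraries. Alternatives were the deposited scale, median-ratio scaling, a pseudocount of 0.1, no filter, 2-group fits, group weights, a replicate block, each library left out, parts of the casted group and, added after seeing the data, replicates 1 to 4 or 5 to 8 of every group. Every one of the 10 genes is named, and of each other list the largest called changes among genes averaging 1 scaled TPM or more, at most 3 per direction, beside Mmp12 and Adamtsl1, which were named after their values were seen. The values of 1 gene that bears on Adamts4 are not reported here. The 10 genes, the lists and the tests were chosen with earlier results of these data known.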

Additional observations from a re-analysis of the deposited data

Results flagged for a closer look

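Each of the 10 genes was checked in each group of 8 for a single library far from the others, 30 checks in all. Chance flags about 1 in 20 of such checks if values are normally spread. The checks used scaled TPM without logs, where high values stand out more than on the log2 scale of the tests. There were 3 such values, all in the casted group. Adamts1 was at 24.2 scaled TPM in casted replicate 2, with the next casted library at 12.7. Timp1 was at 17.9 in the same library, with the next at 6.62. Adamts4 was at 0.745 in casted replicate 5, with the next at 0.276.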

How the results depend on the processing

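Casting called 7 of the 9 tested genes in the fit described, under median-ratio scaling, a pseudocount of 0.1, no filter, a 2-group fit, group weights and each library left out. On the deposited TPM 4 were called, and with casted replicates 1 to 4 alone also 4, against 6 with casted replicates 5 to 8 alone. Of all 14690 tested genes, casting called 8297 in the fit described and 10223 on the deposited TPM. It called 5951 with casted replicates 1 to 4 and 8255 with casted replicates 5 to 8. With no filter it called 8577 of 30779, and with 1 library left out 7887 to 8386 of 14690. On the deposited TPM the sign turned for casting in Mmp15 (0.0285) and Timp3 (0.0661), for MOTS-c in Timp3 (-0.0404), and for casted + MOTS-c against uncasted muscle in Mmp2 (0.27), Adamts5 (0.24), Timp2 (0.13) and Timp3 (0.0258). With casted replicates 1 to 4, MOTS-c gave -0.45 for Timp1 and -0.0403 for Timp3. With casted replicates 5 to 8, Adamts1 gave -0.19 for casting and 0.28 for MOTS-c. MOTS-c then called 3 of the 9 genes, beside 1517 of all 14690 tested genes. The causes were not tested, beyond the shift of the median gene on the deposited scale.

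Genes called for MOTS-c numbered 3, against 8 on the deposited TPM, 0 with a pseudocount of 0.1, no filter, the 2-group fit or group weights, and 1517 against casted replicates 5 to 8. Leaving out 1 library gave 0 to 63, with 63 without casted replicate 1 and 26 without casted + MOTS-c replicate 8. The sign turned in some of these fits for Adamts1 (casting -0.0426 to 0.20, MOTS-c -0.0894 to 0.13) and, for MOTS-c, Timp1 (-0.0899 to 0.42) and Timp3 (-0.00176 to 0.0659). Timp2 in casted + MOTS-c against uncasted muscle passed in the 2-group fit (limma adjusted p = 0.0426) and without casted + MOTS-c replicate 5 (limma adjusted p = 0.0431).

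With replicates 1 to 4 of every group, a fit chosen after seeing the data, casting called 5487 genes and MOTS-c 0, and the sign turned for MOTS-c in Mmp15 (0.0431) and Timp1 (-0.11) and for casted + MOTS-c against uncasted muscle in Adamts5 (0.00945). With replicates 5 to 8 of every group, MOTS-c called 119 genes and casted + MOTS-c against uncasted muscle 4561, and Adamts1 gave -0.035 for casting and 0.18 for MOTS-c.

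Not every pair of samples with equal replicate numbers varied together: 6 of 24 correlations of their deviations were over 0.1 (-0.245 to 0.372), so the numbers were not taken to pair the mice. A library was closest to its own number in 14 of 48 checks, where 8 candidates give 6 by chance, a hint from the data and not from the design. With the replicate block, MOTS-c gave 18 genes, casting 8375 and casted + MOTS-c against uncasted muscle 7481, and Timp2 passed in the last (limma adjusted p = 0.0155). Depth is unknown, so no error from counting can be given for low genes such as Adamts4.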
